A study of Mus musculus with 6 samples.

Results

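The genes described here build and supply cilia. They comprise the intraflagellar transport genes (symbols Ift followed by a number), the Bardet-Biedl syndrome genes (Bbs), the transition zone genes (Tctn, B9d, Mks and Nphp), and the heavy chains of the axonemal dyneins (Dnah). The authors had dropped genes below a minimum of reads from the deposited table, so measured values limited which genes could be members. Within this table, membership was set by symbol alone and gave 37 of its 14865 genes. Of these, 31 belong to parts that every cilium uses, called primary cilium genes below, and 6 are Dnah genes of the motile cilium.

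RNA was taken from cochlear ducts of C57BL/6 mice at postnatal day 8 and sequenced after selection of polyA RNA, in 3 libraries of Gfi1+/+ mice and 3 of Gfi1cre/+ mice. In Gfi1cre/+ mice the coding sequence of Cre recombinase replaces a part of 1 *Gfi1* copy, so the animals carry a single intact copy. The promoter that drives Cre is that of *Gfi1*, and the study describes Cre activity in hair cells and also in immune cells of the inner ear. The genotypes also differed in pooling: a Gfi1cre/+ library averages over 3 mice, with both cochleae of each, whereas a Gfi1+/+ library comes from both cochleae of a single mouse.

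A cilium is a thin projection built on a core of microtubules. Intraflagellar transport carries its parts along this core on trains, in which the IFT-B complex serves mainly movement to the tip with kinesin-2 and the IFT-A complex mainly the return with dynein-2. The BBSome rides on these trains and moves membrane proteins, and the transition zone at the base acts as a gate made of an MKS and an NPHP module. Motile cilia carry in addition outer and inner dynein arms, whose heavy chains are the motors of the beat. In the cochlea most epithelial cells bear a primary cilium, and the hair cell has a kinocilium beside its stereocilia, which in mammals is lost from cochlear hair cells during maturation.

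Expression is given as normalized reads, that is, the number of reads on a gene after division by the size factor of its library. The reads recovered from these values came to 13603908 to 16136022 per library in Gfi1+/+ and 17939607 to 19359753 in Gfi1cre/+. Every Gfi1cre/+ library was thus deeper, and the members had between 20 and 1567 reads in a library. For comparisons between genes, the normalized reads were divided by the length of the merged exons of the gene (normalized reads per kilobase). The tissue label was checked against marker lists. Of 16 hair cell markers, 15 had a row in the table, with a summed level of 9622 to 10778 normalized reads in Gfi1+/+ and 9222 to 9728 in Gfi1cre/+. Of 14 markers of multiciliated cells, 5 had a row (*Foxj1*, *Tekt1*, *Rsph1*, *Dnaic2* and *Hydin*), with sums of 295 to 315 normalized reads in Gfi1+/+ and 279 to 299 in Gfi1cre/+. The other 9, among them the regulators *Mcidas*, *Gmnc* and *Ccno*, had no row under these symbols and so could not be analysed.

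*Gfi1* itself had 147, 160 and 152 normalized reads in Gfi1+/+ and 136, 130 and 139 in Gfi1cre/+, so every Gfi1cre/+ library lay lower. The genotypes lay apart in this direction in 4.07% of all genes tested. The paper reports no significant decrease of *Gfi1* in these samples. It states that the part of the transcript left on the Cre copy still adds reads to the gene. The libraries also differed in ways other than the *Gfi1* genotype. The Y-linked *Ddx3y* had no read in the Gfi1+/+ libraries and 232 to 485 normalized reads in the Gfi1cre/+ libraries, so that sex and genotype cannot be told apart. *Xist*, a transcript of female cells, had 7338 to 8138 normalized reads in Gfi1+/+ and 5359, 4987 and 2301 in Gfi1cre/+. The Gfi1cre/+ pools were thus not of males alone. Gfi1+/+ replicate 1 stood apart from the other libraries in 12 neuronal markers, whose sum was 10072 normalized reads there, 3816 and 2391 in Gfi1+/+ replicates 2 and 3, and 1853 to 2760 in Gfi1cre/+. The sum of 8 glial markers was 40925 normalized reads in that library and between 17891 and 27678 in the other 5. Of 9 erythroid markers, 8 had a row, with sums of 454 to 738 normalized reads in Gfi1+/+ and 797 to 2050 in Gfi1cre/+.

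The primary cilium genes were all measured at a higher level per kilobase than the Dnah genes, in every library. The median over the 6 libraries' means was 78.7 normalized reads per kilobase for the 31 primary cilium genes and 5.57 for the 6 Dnah genes, and the ranges of the 2 classes did not overlap, from 20.2 to 854 against 1.70 to 12.1. Summed over its members, the primary cilium class had 105.7 times the level of the Dnah class (mean log2 ratio of Dnah to primary cilium genes -6.72 ± 0.13, SD, n = 6 libraries). The sums rest on different numbers of genes, and the ratio of the class medians was smaller, at 13.9. The low level was not shared by all motile cilium genes. Those of a further fixed list, described below, ranged from 0.767 normalized reads per kilobase (*Hydin*) to 106 (*Rsph9*). The 16 of them that were tested, which needed 40 normalized reads in 1 or more libraries, had a median of 29.3. This median leaves out those with few reads among the 22 with a row. The 5 Dnah genes tested, chosen by the same minimum, had a median of 6.14. Besides these, 9 further Dnah genes of the role lists, among them *Dnah5* and *Dnah9* of the outer arm, had no row in the deposited table. The authors had dropped genes below a minimum of reads from it. The level and ratios of the Dnah class thus cover only the 6 Dnah genes with a row. They may overstate the level of the Dnah genes as a whole, which was not tested.

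The IFT-B genes spanned the widest range of levels. *Ift20*, which also acts at the Golgi apparatus, had normalized reads of 1365, 1329 and 1248 in the Gfi1+/+ libraries and of 1364, 1205 and 1307 in the Gfi1cre/+ libraries, each in the order of replicates 1, 2 and 3, which is kept below. At a mean of 854 normalized reads per kilobase it was the highest of the 37 members and stood at percentile 93.2 of the 14791 genes with a known length. The 11 IFT-B genes ran down from there to 46.3 normalized reads per kilobase for *Ift80*. Between them lay *Ift52*, *Ift46*, *Ift27*, *Ift172*, *Ift74*, *Ift22*, *Ift57*, *Ift81* and *Ift88*, of which *Ift88* is the subunit whose loss is widely used to remove cilia. Of the 3 IFT-A genes, *Ift43* stood at 267 normalized reads per kilobase, above *Ift122* at 78.7 and *Ift140* at 65.6. In *Ift43* the reads of the genotypes overlapped, with 438, 488 and 410 normalized reads in Gfi1+/+ and 438, 428 and 443 in Gfi1cre/+.

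The 8 Bbs genes spanned 31.4 to 129 normalized reads per kilobase, and 7 of them lay below the median of the 14 IFT genes, 122. The highest was *Bbs2*, a core subunit of the BBSome, at 129 normalized reads per kilobase, and *Bbs4*, *Bbs9*, *Bbs1*, *Bbs5* and *Bbs7* followed down to 35.6. The lowest were *Bbs10* and *Bbs12*, which encode chaperonin-like proteins that help to assemble the BBSome rather than parts of it, with means of 31.5 and 31.4 normalized reads per kilobase that were not separated by their ranges.

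In the transition zone, *Nphp4* of the NPHP module was the lowest of all primary cilium genes at 20.2 normalized reads per kilobase. It had 102, 121 and 133 normalized reads in Gfi1+/+ and 128, 132 and 117 in Gfi1cre/+, so that the genotypes overlapped. The 6 genes of the MKS module ranged from 42.5 for *Tctn1*, a tectonic, to 203 for *B9d1*, which with *B9d2* and *Mks1* forms the group of B9 domain proteins. Exons of other genes overlapped 25.5% of the exon bases of *Tctn1*, so its level may hold or lack reads of these genes; for the other members this share was at most 7.86%.

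Each Dnah gene stood at or below percentile 7.63 of the genes with a known length, and *Dnah2* of the inner arms marked the top of this class at 12.1 normalized reads per kilobase. *Dnah2* had 163, 223 and 174 normalized reads in Gfi1+/+ and 170, 210 and 151 in Gfi1cre/+. *Dnah11*, an outer arm heavy chain, had 106, 118 and 147 in Gfi1+/+ and 148, 141 and 114 in Gfi1cre/+, or 8.93 normalized reads per kilobase. In both genes the ranges of the genotypes overlapped in part. *Dnah1*, *Dnah7b* and *Dnah8* followed with 6.14, 5.01 and 3.88 normalized reads per kilobase. *Dnah17*, an outer arm chain known from sperm, was the lowest member at 1.70 and had 24.7, 22 and 29.5 normalized reads in Gfi1+/+ and 33.1, 30.2 and 25.5 in Gfi1cre/+. *Dnah7b* has near copies, and 11.0% of the 150-base windows of its longest transcript also occur in *Dnah7a* or *Dnah7c*, so its value is uncertain because the study kept uniquely mapped reads only.

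**Figure D1:**
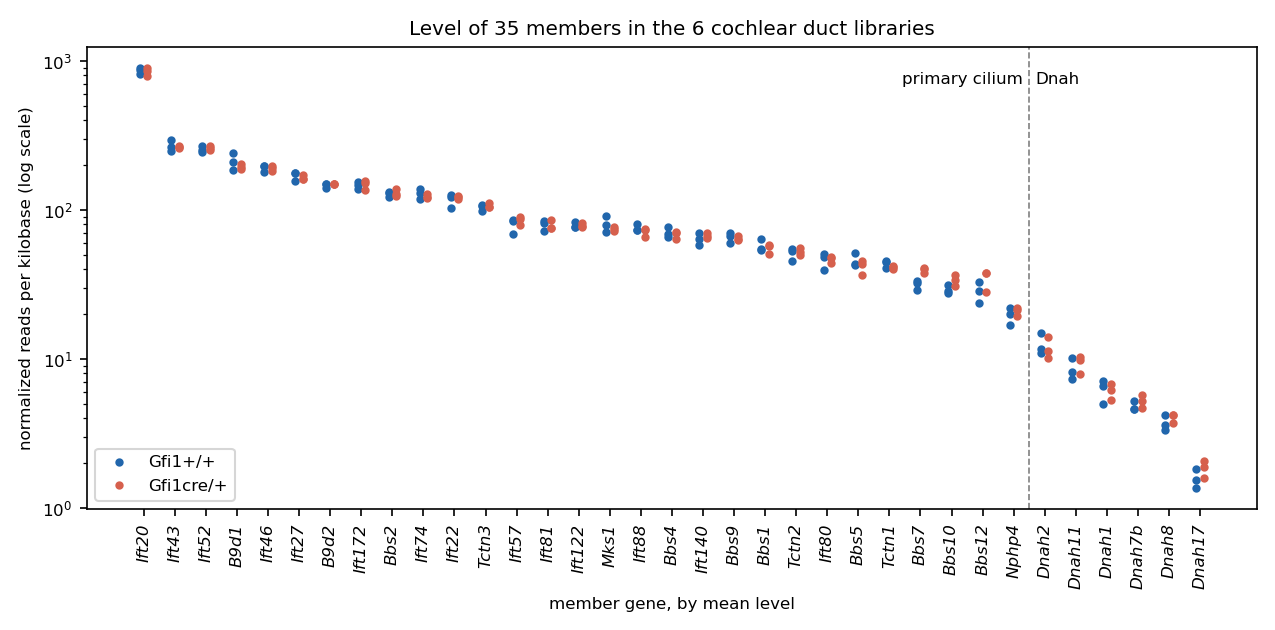
Normalized reads per kilobase of merged exon (log axis) of 35 members, ordered by mean level, with 1 point per library and colours for the genotypes. *Ift20* stands highest at a mean of 854, the primary cilium genes end with *Nphp4* at 20.2, and the 6 Dnah genes lie to the right of the dashed line, from 12.1 down to 1.70.

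In the order of levels, 10 of the 36 neighbouring pairs had ranges over the 6 libraries that lay apart. These included *Ift46* above *Ift27* and *Nphp4* above *Dnah2*. From *Ift57* at 82.4 down to *Bbs12* at 31.4 normalized reads per kilobase, the range of each gene overlapped that of the next, although *Bbs9* lay above *Bbs1* and *Bbs7* above *Bbs10* in every library. Taken per kilobase of the longest transcript instead, the level of 15 of the 37 members was more than 1.5 times higher. That of *Bbs7* rose from 35.6 to 71.4 normalized reads per kilobase, since its merged exons hold 5390 bases and its longest transcript 2687.

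Many genes of the cilium are controlled by RFX transcription factors, which bind the X-box, a pair of inverted arms of the type GTTGCC around a short spacer. Promoter windows of 300 bases, 250 before and 50 after the start site (RefSeq, GRCm38.p6), matched 32 of the 37 members. The arm, GTTGCC on either strand, was found in 15 of 26 primary cilium genes (57.7%) and in 1 of 6 Dnah genes, *Dnah7b*. It was found in 14.1% of 27025 genes with a promoter window and in 14.9% of the 10529 among them that are in the deposited table. The palindrome, written here as GTNNCC, 2 free bases and GGNNAC, reads the same on both strands and can contain the arm. It was found in 9 of 26 primary cilium genes (34.6%), in 0 of 6 Dnah genes, in 2.16% of all 27025 genes and in 2.62% of those in the deposited table. A match describes the letters of the window and does not show binding.

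The 10 palindromes are shown because they are a sequence feature that the choice by symbol did not use and that 9 of the primary cilium genes have in common. Each is given with up to 8 flanking bases on the strand of the gene, with the palindrome in capitals and its first base counted from the start site.

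*Bbs7*, chr3:36613489-36613518, minus strand, position -121: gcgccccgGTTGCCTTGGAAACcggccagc
*Bbs1*, chr19:4906605-4906634, minus strand, position 2: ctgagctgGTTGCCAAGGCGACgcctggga
*Bbs4*, chr9:59353464-59353493, minus strand, position 24: ctcagctgGTCGCCCGGGAAACggtcggct
*Ift22*, chr5:136908079-136908108, plus strand, position -63: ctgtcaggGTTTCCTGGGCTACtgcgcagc
*Ift22*, chr5:136908109-136908138, plus strand, position -33: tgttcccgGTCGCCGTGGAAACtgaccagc
*Ift57*, chr16:49699199-49699228, plus strand, position -87: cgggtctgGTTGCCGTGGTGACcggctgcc
*Mks1*, chr11:87853183-87853212, plus strand, position -24: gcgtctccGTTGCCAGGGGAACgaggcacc
*Nphp4*, chr4:152477903-152477932, plus strand, position -231: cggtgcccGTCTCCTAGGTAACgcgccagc
*Tctn1*, chr5:122264411-122264432, minus strand, position 37: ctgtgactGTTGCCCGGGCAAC
*Tctn2*, chr5:124598679-124598708, plus strand, position -62: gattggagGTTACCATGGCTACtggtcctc

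Of these, 5 hold the arm GTTGCC, in *Bbs7*, *Bbs1*, *Ift57*, *Mks1* and *Tctn1*. *Ift22* has 2 palindromes, and *Nphp4* has its own in only 1 of the 3 windows listed for it. The genes with a palindrome covered the BBSome, IFT-B and both modules of the transition zone, and spanned levels from *Ift22* at 119 to *Nphp4* at 20.2 normalized reads per kilobase.

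**Figure D2:**
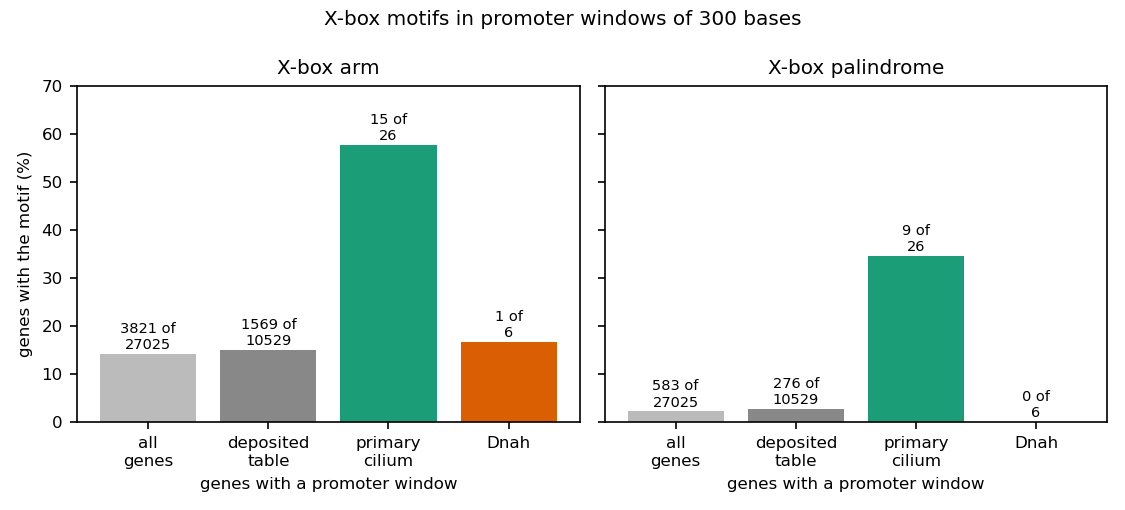
Share of genes (%) whose promoter window holds the X-box arm GTTGCC (left) or the X-box palindrome (right), for all 27025 genes with a window, the 10529 in the deposited table, 26 primary cilium genes and 6 Dnah genes, with the counts above the bars. The palindrome stands at 34.6% in primary cilium genes and 2.16% in all genes.

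The comparison of Gfi1cre/+ with Gfi1+/+ asks whether the loss of 1 *Gfi1* copy goes with other levels of cilium genes before hearing begins. No member differed between the genotypes at an adjusted p-value under 0.05, and the fold changes were small. It was made with limma on log2(normalized reads + 1), a scale that understates the change of low genes, and p-values were adjusted by Benjamini-Hochberg for all 14455 genes tested. The 36 members tested exclude *Dnah17*, which did not reach 40 normalized reads in any library. With limma, 0 of the 36 had an adjusted p-value under 0.05, against 4 genes or 0.0277% of all genes tested, and the lowest adjusted p-value of a member was 0.999. At an unadjusted p-value under 0.05 there was 1 member, *Bbs7*, also with edgeR and with DESeq2. It was higher in Gfi1cre/+, where the background was 1.02% of the genes tested, and no member was lower, where the background was 2.02%.

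The median log2 fold change of the 36 members was 0.01, beside -1.16e-04 over all genes tested, with 19 members higher and 17 lower in Gfi1cre/+. This split depended on single libraries, with 26 higher and 10 lower without Gfi1+/+ replicate 2, 23 higher and 13 lower without Gfi1cre/+ replicate 3, and 15 higher and 21 lower without Gfi1+/+ replicate 3. The values ran from -0.14 for *Bbs5* to 0.33 for *Bbs7*. The 95% intervals of all 36 members lay within a log2 fold change of 1 in either direction, those of 34 within 0.5 and those of 18 within 0.25, so a 2-fold difference lay outside the interval of each member tested. The intervals are not adjusted for the number of genes. In whole cochlear ducts, fewer cells of a type and less RNA per cell cannot be told apart.

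**Figure D3:**
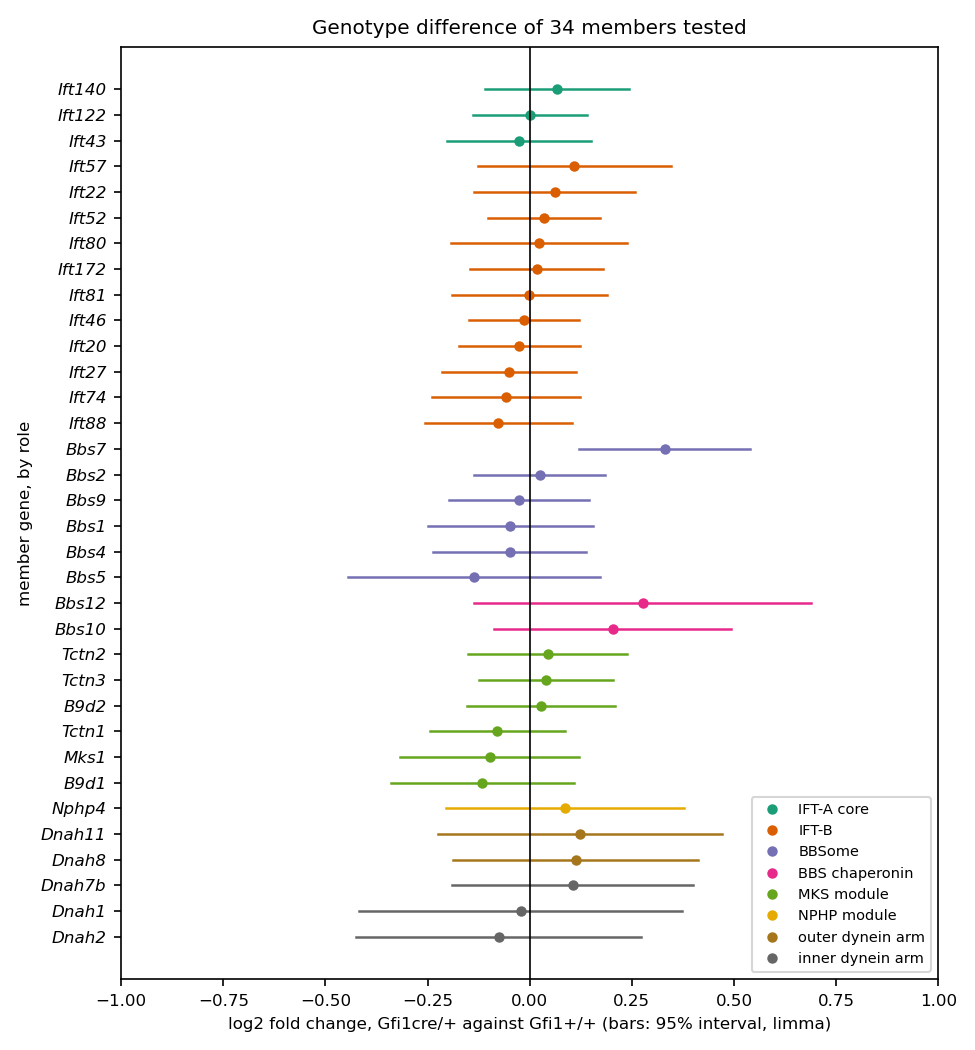
Log2 fold change of 34 members tested, Gfi1cre/+ against Gfi1+/+, with the 95% interval from limma as a bar, coloured by role. The interval of *Bbs7* (0.12 to 0.54) lies to the right of 0, and the other intervals drawn include 0.

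*Bbs7* (ENSMUSG00000037325) lies on the minus strand of chromosome 3, from 36573142 to 36613477 of GRCm38, and encodes a BBSome subunit. Its values were 180, 157 and 173 normalized reads in Gfi1+/+ and 218, 204 and 220 in Gfi1cre/+. Every Gfi1cre/+ library lay above all Gfi1+/+ libraries. A two-sided exact permutation test gave p = 0.1, which is its lowest possible value with 3 libraries in each genotype. The means were 170 ± 11.9 and 214 ± 8.47 normalized reads (SD, n = 3), a ratio of 1.26. The log2 fold change was 0.33 with a standard error of 0.0926, with an unadjusted p = 0.00604 and an adjusted p = 0.999 from limma. Without Gfi1+/+ replicate 3 the adjusted p-value from limma was 0.162. The log2 fold change lay between 0.27 and 0.37 over the fits that each omitted 1 library, and its value without Gfi1+/+ replicate 1, the library rich in neuronal RNA, was 0.37.

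*Bbs7* was the only one of the 36 members tested whose genotypes did not overlap. The background for such a separation was 3.45% of the genes tested with Gfi1cre/+ above and 4.07% with Gfi1cre/+ below, and the members had 1 gene above and 0 below. Its 162 bases of promoter upstream of the annotated gene are shown because they belong to this member. The sequence is chr3:36613478-36613639 of GRCm38.p6, written on the strand of the gene with the palindrome in capitals, which ends 19 bases before the gene as GENCODE gives it.

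*Bbs7* promoter: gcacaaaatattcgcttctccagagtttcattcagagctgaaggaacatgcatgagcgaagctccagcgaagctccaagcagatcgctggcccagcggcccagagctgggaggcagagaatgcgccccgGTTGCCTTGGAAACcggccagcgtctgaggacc

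In each of the other Bbs genes the genotypes overlapped; their differences were not tested against that of *Bbs7*. In the BBSome, *Bbs2* had 433, 429 and 405 normalized reads in Gfi1+/+ and 409, 456 and 425 in Gfi1cre/+, and its log2 fold change of 0.02 changed sign with the library left out. The other 4 BBSome genes had log2 fold changes between -0.14 (*Bbs5*) and -0.03 (*Bbs9*). The chaperonin-like genes came next to *Bbs7* in size. *Bbs12* had 80.2, 69.1 and 58.0 normalized reads in Gfi1+/+ and 68.8, 91.4 and 91.5 in Gfi1cre/+, with a log2 fold change of 0.28 and a 95% interval from -0.14 to 0.69. *Bbs10* had 87.6, 84.8 and 94.9 in Gfi1+/+ and 111, 104 and 93.4 in Gfi1cre/+, with a log2 fold change of 0.20 and an interval from -0.09 to 0.49. In both genes 1 Gfi1cre/+ library lay among the Gfi1+/+ libraries, and the adjusted p-value from limma was 0.999.

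**Figure D4:**
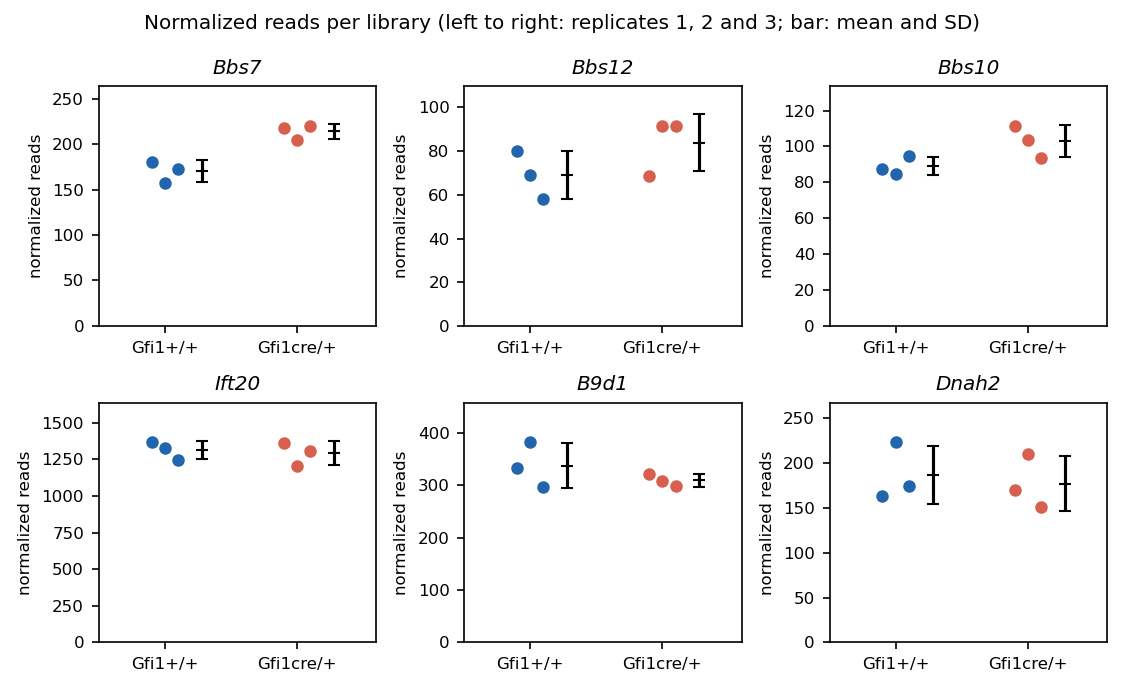
Normalized reads (linear axis from 0) of *Bbs7*, *Bbs12*, *Bbs10*, *Ift20*, *B9d1* and *Dnah2* in each library, with the mean and SD of 3 libraries as a bar. In *Bbs7* the Gfi1cre/+ libraries (204 to 220) lie above the Gfi1+/+ libraries (157 to 180), and in the other 5 genes the genotypes overlap.

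Among the IFT genes, 7 of 14 were higher and 7 lower, with log2 fold changes between -0.08 (*Ift88*) and 0.11 (*Ift57*). *Ift57*, an IFT-B subunit, had 243, 198 and 241 normalized reads in Gfi1+/+ and 258, 227 and 248 in Gfi1cre/+, and *Ift80* had 599, 627 and 490 in Gfi1+/+ and 597, 545 and 593 in Gfi1cre/+. In both the lowest value was a Gfi1+/+ library. In *Ift80* the Gfi1cre/+ values lay between that library and the other Gfi1+/+ libraries, and the log2 fold change went from 0.02 to -0.084 without Gfi1+/+ replicate 3. *Ift140*, with the largest difference of the IFT-A genes, had 486, 583 and 534 normalized reads in Gfi1+/+ and 554, 541 and 579 in Gfi1cre/+, a log2 fold change of 0.07.

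Of the 9 transition zone genes, 5 were higher and 4 lower (6 higher after quantile normalization or median centring), and the most negative log2 fold change of the MKS module was -0.12 (*B9d1*). *B9d1* had 333, 382 and 296 normalized reads in Gfi1+/+ and 322, 309 and 298 in Gfi1cre/+, and *Tctn1* had 339, 378 and 369 in Gfi1+/+ and 345, 351 and 332 in Gfi1cre/+. In both the genotypes overlapped. Without Gfi1+/+ replicate 3, *B9d1* also had an unadjusted p-value under 0.05 from limma. Of the 5 Dnah genes tested, 3 were higher and 2 lower (4 higher after quantile normalization, and 5 higher without Gfi1+/+ replicate 2 or without Gfi1cre/+ replicate 3), with log2 fold changes between -0.08 (*Dnah2*) and 0.12 (*Dnah11*). *Dnah7b*, the inner arm chain with the largest difference, had 92.6, 105 and 91.8 normalized reads in Gfi1+/+ and 104, 114 and 93.4 in Gfi1cre/+, a log2 fold change of 0.10.

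The means of the groups of members also varied from library to library within a genotype. The 9 transition zone genes deviated from their average over libraries by -0.11 on the log2 scale in Gfi1+/+ replicate 1, by 0.05 and 0.07 in Gfi1+/+ replicates 2 and 3 and by -0.02 to 0.02 in Gfi1cre/+. Gfi1+/+ replicate 1, the library with the highest neuronal and glial marker sums, held the lowest value in 6 of these 9 genes. It did so in 8 of all 37 members. The part of the neuronal RNA in this was not tested. The share over all genes was not computed, so these counts do not show a trait of the members. Without that library the median log2 fold change of the transition zone genes went from 0.03 to -0.04, and 2 of 9 were higher in Gfi1cre/+.

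A different library was low for the transport genes. Gfi1+/+ replicate 3 held the lowest value in 9 of 14 IFT genes, in 3 of 8 Bbs genes and in 16 of all 37 members. For this library too the share over all genes was not computed. Its mean deviation was -0.06 for the IFT genes and -0.11 for the Bbs genes. The other Gfi1+/+ libraries deviated by 0.02 and 0.04 for the IFT genes, and the Gfi1cre/+ libraries by -0.02 to 0.02. The sum of 8 bone and cartilage markers was highest in the same library, with 426924 normalized reads against 302558 and 356417 in the other Gfi1+/+ libraries and 366438 to 393013 in Gfi1cre/+; its part in the lower IFT values was not tested. Without Gfi1+/+ replicate 3, 4 of 14 IFT genes and 3 of 8 Bbs genes were higher in Gfi1cre/+. The counts moved the other way without other libraries, to 10 of 14 IFT genes without Gfi1+/+ replicate 2 and to 6 of 8 Bbs genes without Gfi1+/+ replicate 1. The mean deviation of the 6 Dnah genes was 0.07, 0.16 and -0.12 in Gfi1cre/+ replicates 1, 2 and 3. In Gfi1+/+ it varied less, with -0.071, -0.0041 and -0.039. Gene by gene, the median SD of the Dnah genes was larger in Gfi1+/+ (0.221) than in Gfi1cre/+ (0.180).

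**Figure D5:**
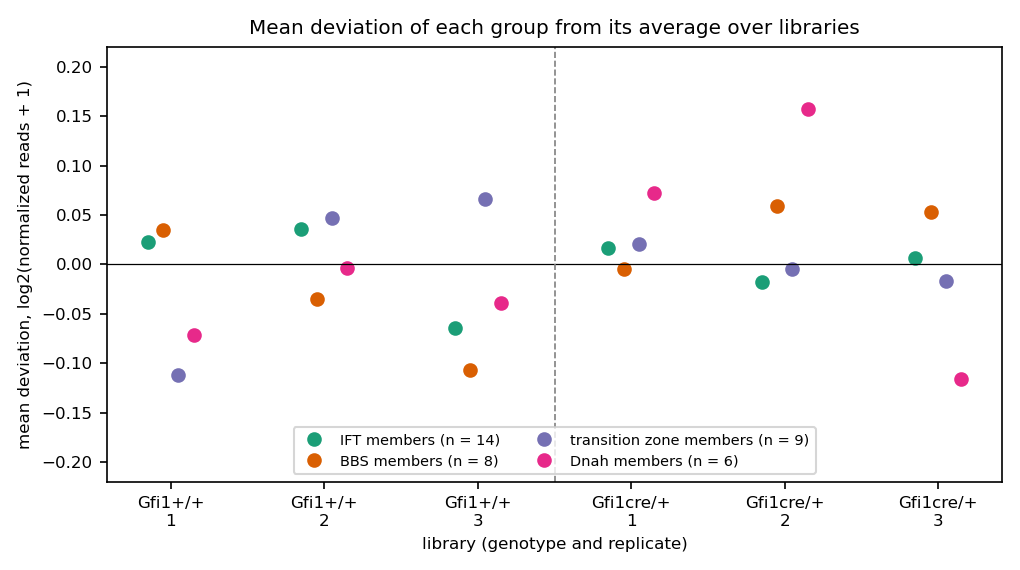
Mean deviation of the IFT, Bbs, transition zone and Dnah genes from their own average over the 6 libraries, on the log2(normalized reads + 1) scale, with 1 point per group and library and the genotypes on either side of the dashed line. The transition zone genes are lowest in Gfi1+/+ replicate 1 at -0.11, and the IFT and Bbs genes in Gfi1+/+ replicate 3 at -0.06 and -0.11.

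For the primary cilium genes, the median spread was close to the counting error between Gfi1cre/+ libraries and larger than it between Gfi1+/+ libraries. For the 31 primary cilium genes the median SD on the log2 scale was 0.114 between Gfi1+/+ libraries and 0.0713 between the pooled Gfi1cre/+ libraries, and the SD that the read numbers alone would give was 0.0704. For the 6 Dnah genes these values were 0.221, 0.180 and 0.142. The SD was larger in Gfi1+/+ in 28 of the 37 members, including all 9 transition zone genes. The same held over all 14455 genes tested, with a median SD of 0.119 in Gfi1+/+ and 0.0737 in Gfi1cre/+, so the pattern is not particular to the members. The number of mice in a library, the depth of the library and the genotype cannot be told apart in this. The counting SD was taken from the mean reads over all libraries and was not split by genotype. *B9d2* had the smallest ratio of the highest to the lowest library, at 1.07, and *Bbs12* the largest, at 1.58.

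Differences were also small in the rest of the pathway, taken from 4 fixed lists. Of the further IFT and BBS subunits and motors, 24 had a row and 23 were tested, among them *Kif3a* and *Kif3b* of kinesin-2 and *Dync2h1* of dynein-2. In Gfi1cre/+, 8 were higher and 15 lower, with a median log2 fold change of -0.02. Of 17 further genes of the transition zone and inversin compartment, all were tested, with 9 higher and 8 lower and a median of 0.01. Of 13 genes of signalling through the primary cilium, such as the Hedgehog pathway with *Smo*, *Ptch1* and *Gli1*, 9 were higher and 4 lower with a median of 0.03. Of 39 further motile cilium genes, 22 had a row and 16 were tested, with 10 higher and 6 lower and a median of 0.03. With limma, none of these 69 genes had an adjusted or an unadjusted p-value under 0.05.

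In these 69 genes the genotypes lay apart in 4 with Gfi1cre/+ above and in 4 with Gfi1cre/+ below, named here after their values were seen, beside the background of 3.45% and 4.07% of all genes tested. *Ttc26*, an IFT-B subunit, had 115, 117 and 121 normalized reads in Gfi1+/+ and 136, 129 and 125 in Gfi1cre/+. *Inpp5e*, a ciliary phosphoinositide phosphatase, had 790, 820 and 826 in Gfi1+/+ and 851, 947 and 851 in Gfi1cre/+. The other genes above were *Mlf1* and *Rfx2*, a factor of the RFX family, with log2 fold changes of 0.37 and 0.15. Below lay *Kifap3*, the accessory subunit of kinesin-2, with 827, 704 and 693 normalized reads in Gfi1+/+ and 665, 686 and 661 in Gfi1cre/+. *Cluap1*, an IFT-B subunit, *Tekt1*, a tektin of motile cilia, and *Ccdc39*, a ruler protein of the axoneme, had log2 fold changes of -0.15, -0.27 and -0.28.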

How the data were processed

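Per the labels and the methods, libraries were made with a TruSeq kit, and the authors aligned the reads to mm10 with Tophat, counted uniquely mapped reads with HTSeq-count, normalized the counts and dropped genes with fewer than 40 reads. Versions, annotation, strand setting and the libraries over which the 40 reads were counted are not given in the sources used here. The minimum did not hold in each library, since *Dnah17* has a row with 20 to 38 reads per library. The deposited values are a signal per gene and library. In each column, 100% were whole multiples of 1 step within rounding, so they are read counts divided by a size factor, although the methods name quantile normalization. The genotype and number in a column's name gave its sample.

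Genes that reached 40 normalized reads in 1 or more libraries were tested with limma 3.58.1 in R 4.3.3 on log2(value + 1) (lmFit, then eBayes with trend). The model held genotype alone and tests were two-sided. Recovered reads were also tested with edgeR 4.0.16 and DESeq2 1.42.0. P-values measure the spread between the 3 libraries of each genotype. A count of 0 allows up to 3 reads, or 2.61 to 3.70 normalized reads, for counting error only. Gene positions and lengths came from GENCODE M21 (GRCm38, 14791 of 14865 identifiers matched), and promoters from RefSeq. The members and lists were chosen with earlier results of these data known. Named with the values of each library were members with an unadjusted p-value under 0.05 or with genotypes apart, and in each role the highest, the lowest and the most different member; a few members are counted in the totals but not reported here. The limma step was tested on simulated counts, with changes larger than those of the members and equal spread in both genotypes. That does not show whether changes as small as those of the members would be found.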

Additional observations from a re-analysis of the deposited data

How the results depend on the processing

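Under the 12 other settings for all 6 libraries and the 6 fits that each left out 1 library, 0 members had an adjusted p-value under 0.05, and their median log2 fold change lay between -0.01 and 0.04. The settings covered pseudocounts, minima, variance models, normalizations, edgeR, DESeq2 and the replicate block. With the replicate block the median was 0.01 and no call changed. Over all genes, 4 calls became 10 with DESeq2, 0 with a minimum mean of 200, 48 without Gfi1+/+ replicate 3, 8 without Gfi1+/+ replicate 2, and 0 without Gfi1cre/+ replicate 2 or without replicate 3. After centring within genotype, the correlations of same-numbered libraries ran from -0.0944 to 0.107, beside -0.156 to 0.150 for differently numbered ones. With so few libraries, these values cannot decide whether the numbers pair the libraries. The count of members at an unadjusted p-value under 0.05 was 0 with that minimum (26 members tested, without *Bbs7*) and ranged from 1 to 2 with a library left out. The log2 ratio of Dnah to primary cilium levels, -6.72 as reported, was -7.01 per kilobase of the longest transcript, -4.51 without division by length, -3.80 from medians and -6.93 without *Ift20* and *Dnah2*; it lay between -6.76 and -6.69 with a library left out. 

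With a library left out the log2 fold change changed sign in 7 named members, none of which passed the test. It ranged from -0.019 to 0.059 in *Bbs2*, from -0.21 to 0.058 in *Dnah2*, from -6.7e-05 to 0.13 in *Ift140*, from -0.066 to 0.024 in *Ift20*, from -0.084 to 0.041 in *Ift43*, from -0.084 to 0.093 in *Ift80* and from -0.017 to 0.17 in *Nphp4*. The cause was not tested. Depth limits the Dnah genes most, with 20 to 237 reads in a library. Strand, splice forms and the cell types that hold the reads were not analysed here.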
